A study of Xenopus laevis with 6 samples.

Results

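Peaks of FLAG-tagged β-catenin on the unplaced scaffolds of the Xenopus laevis genome were taken as every peak whose sequence name begins with "Scaffold" in 6 peak lists, 1 from MACS and 1 from HOMER for each of 3 ChIP replicates. They numbered 9409 of 101602 peaks, and 59 of the 855 intervals of the authors' combined list lay on such sequences as well. All the embryos had received 500 pg of triple FLAG-tagged β-catenin in both blastomeres at the 2-cell stage, on the animal side, a dose that per the design text left the phenotype unaffected. Whole embryos were collected at stage 11.5, during gastrulation. Chromatin was crosslinked with formaldehyde, and per the labels' protocols 100 embryos were pooled for each sonication, while the series' design text gives about 500 for the fixed pools. The 3 ChIP samples and 3 inputs are numbered here as replicates 1 to 3, in the order of the different numbers in their titles. Values of the inputs were not analysed here, nor was any library from embryos without the tagged protein. Nothing in the labels tells whether the replicates were separate clutches, so p-values and SDs cover a spread that may be technical.

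β-catenin carries canonical Wnt signals into the nucleus. It has no DNA-binding domain of its own and reaches chromatin through partners, chiefly the TCF/LEF factors. In the Xenopus embryo Wnt/β-catenin signalling first sets the dorsal side and, after zygotic transcription has begun, patterns the mesoderm and the posterior axis. Xenopus laevis is an allotetraploid frog, with a long and a short copy of most chromosomes. An unplaced scaffold is an assembled stretch of DNA that was not assigned to any chromosome. It can be a long block of unique sequence or a short fragment, and repeats and nearly identical copies tend to end up in the fragments.

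By extent, the scaffolds with a peak fell into a few very long and many very short ones. A peak was found on 2154 scaffolds, and the extent of each was set to the end of its last peak over all lists, which is a lower bound of its true length. Extents ran from 68 bp to 10498856 bp, with a median of 471 bp, and summed to 146.2 Mb, or 5.51% of the extent of all sequences with peaks. Of the scaffolds, 43 reached 1 Mb and made up 75.9% of the summed extent. Another 77 lay between 100 kb and 1 Mb, 433 between 1 kb and 100 kb, and 1601 under 1 kb. These 1601 were 74.3% of the scaffolds and 0.454% of the extent.

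The number in a scaffold's name, which peaks do not set, was used as a second indication of size. That this number follows length was judged only from extent, which peaks do set. Across the 2154 scaffolds it fell as extent rose (Spearman's rho -0.833, across sequences and given as a description). All 44 numbers from 19, the lowest present, to 62 carried a peak, and 43 of them reached 1 Mb, the exception being Scaffold61 with an extent of 861665 bp. All 38 numbers from 63 to 100 and 91 of the 100 numbers after that carried a peak too. The 1771 scaffolds numbered above 1000 had a median extent of 396 bp and at most 3230 bp. Scaffolds with an extent under 1 kb had numbers from 173 to 399984 (median 24094), whereas Scaffold176 had an extent of 66507 bp. Some scaffolds placed under 1 kb may therefore be longer than their extent.

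Scaffold peaks made up 8.71% (95% Wilson interval 8.19 to 9.27), 10.7% (10.4 to 11.1) and 9.17% (8.89 to 9.45) of the MACS lists of replicates 1, 2 and 3, a mean of 9.54% ± 1.06 (SD, n = 3). In the HOMER lists they made up 9.27% (8.69 to 9.88), 7.12% (6.64 to 7.64) and 7.16% (6.42 to 7.98), a mean of 7.85% ± 1.23 (SD, n = 3). Intervals cover counting error only, and sequencing depth is unknown, because peak lists carry no read totals. Replicate 1 thus had the smallest scaffold share of the 3 MACS lists and the largest of the 3 HOMER lists. The 43 scaffolds of 1 Mb and over held 432, 1522 and 2087 MACS peaks, or 47.9%, 51.8% and 56.8% of the scaffold peaks. Of the HOMER scaffold peaks they held 360, 409 and 150, or 42.0%, 55.6% and 49.7%. Scaffolds under 1 kb held 289, 659 and 595 MACS peaks and 309, 189 and 95 HOMER peaks. Their part of the scaffold peaks was largest in replicate 1 with both callers, at 32.0% for MACS and 36.0% for HOMER.

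**Figure D1:**
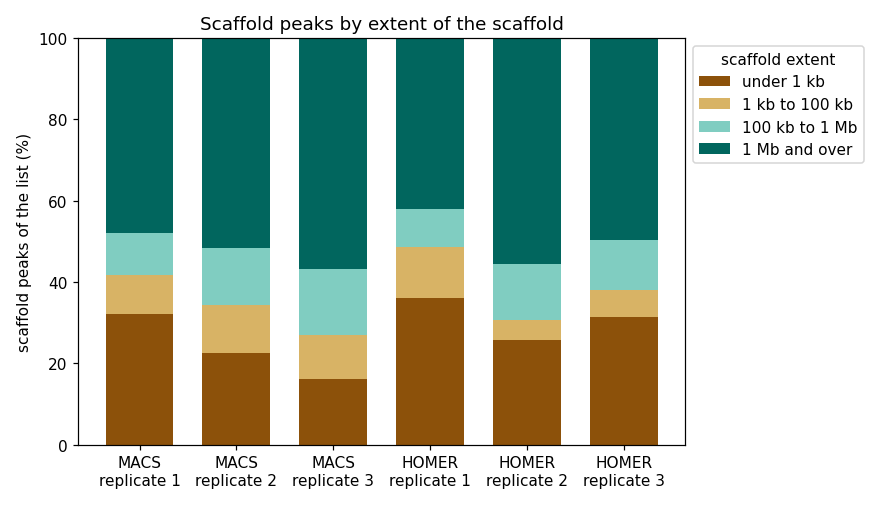
Percentage of the scaffold peaks of each list (y axis) on scaffolds of 4 ranges of extent, 1 bar per list. Scaffolds of 1 Mb and over held between 42.0% (HOMER replicate 1) and 56.8% (MACS replicate 3), and scaffolds under 1 kb between 16.2% and 36.0%.

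The scaffolds with the most peaks were all among the longest. Scaffold20, with an extent of 8.15 Mb, led with both callers. In replicates 1, 2 and 3 it had 36, 177 and 226 peaks from MACS and 31, 47 and 17 from HOMER. Scaffold24 came second with both, at 32, 129 and 157 MACS peaks and 27, 32 and 12 HOMER peaks on 4.66 Mb. Scaffold22, 6.17 Mb in extent, had 22, 133 and 172 MACS peaks but 12, 24 and 5 HOMER peaks, and no common interval. Scaffold19, the longest, had 29, 100 and 151 MACS peaks and 26, 24 and 8 HOMER peaks. Scaffold23 came last of the 5 richest with both callers, at 33, 67 and 95 MACS peaks and 18, 24 and 7 HOMER peaks. Scaffold21 stood among the 5 richest in HOMER peaks in place of Scaffold22, with 21, 33 and 13 HOMER peaks. Together the 5 scaffolds richest in MACS peaks held 16.9%, 20.6% and 21.8% of the MACS scaffold peaks of replicates 1, 2 and 3. No single scaffold dominated, since Scaffold20 averaged 5.39% of the MACS and 5.21% of the HOMER scaffold peaks.

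On the 43 longest scaffolds HOMER peaks were nearly as dense as on chromosomes, and MACS peaks were denser in replicates 2 and 3. HOMER gave 3.24, 3.68 and 1.35 peaks per Mb there in replicates 1, 2 and 3, against 3.35, 3.82 and 1.56 on the 18 chromosomes. The mean log2 ratio was -0.10 ± 0.09 (SD, n = 3). MACS gave 3.89, 13.7 and 18.8 peaks per Mb against 3.77, 9.75 and 14.5, which is 1.03-fold, 1.41-fold and 1.30-fold the chromosome density. The mean log2 ratio was 0.30 ± 0.23 (SD, n = 3), so the excess was of the order of the spread between replicates. Each ratio pointed one way in 3 of 3 replicates, and an exact 2-sided sign-flip permutation test over the replicates gave p = 0.25 for both callers (adjusted p = 0.25 over these 2 tests). That is the smallest p that the 8 sign patterns of 3 replicates allow, so no comparison made this way could pass the threshold of 0.05. Extents are lower bounds, so densities on scaffolds are upper bounds.

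Single scaffolds varied much more than whole chromosomes, and most lay within the middle 90% of 2 Mb stretches of chromosome. Replicate 3 MACS density ran from 3.14 to 41.2 peaks per Mb over the 43 scaffolds and from 12.1 to 17.7 over the 18 chromosomes. The scaffolds ran from 1.03 to 10.5 Mb in extent. Chromosomes were therefore also read in 1245 windows of 2 Mb, laid end to end, which match the scaffolds in size only roughly. The middle 90% of these windows, from the percentile 5 to the percentile 95, spanned 6.5 to 30.5 peaks per Mb in that list, and 4 of the 43 scaffolds lay above this range and 4 below it. For replicate 1 MACS the range was 1 to 8.5 peaks per Mb, with 1 scaffold above and 2 below. For replicate 2 MACS it was 3.5 to 22.4, with 5 above and 3 below. No scaffold exceeded the range in the HOMER lists of replicates 1 and 2, and 1 did in that of replicate 3. Below the range lay 3 scaffolds in replicate 1 HOMER, 2 in replicate 2 and 0 in replicate 3, where the range began at 0.

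**Figure D2:**
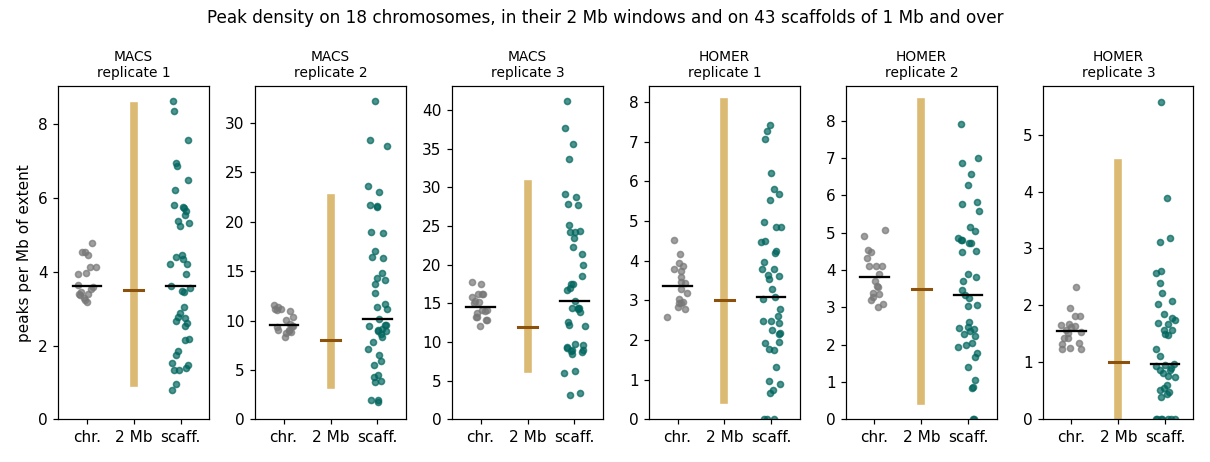
Peaks per Mb of extent (y axes, 1 scale per list) on the 18 chromosomes (grey points), in 1245 chromosome windows of 2 Mb (bar from percentile 5 to percentile 95, brown line at the median) and on the 43 scaffolds of 1 Mb and over (green points). Black lines are medians; in replicate 3 MACS the highest scaffold stood at 41.2 and the highest chromosome at 17.7.

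The MACS excess on the long scaffolds lay in peaks that HOMER did not call. MACS peaks that overlapped a HOMER peak of the same replicate stood at 1.77, 2.18 and 0.531 per Mb on the long scaffolds and at 1.97, 2.23 and 0.538 per Mb on chromosomes. That was 0.897-fold, 0.979-fold and 0.987-fold the chromosome density. MACS peaks without a HOMER call stood at 2.13, 11.5 and 18.3 per Mb, against 1.80, 7.53 and 14.0, or 1.18-fold, 1.53-fold and 1.31-fold. By recurrence, the excess was found in several classes. Peaks found in no other MACS list, 700 on the long scaffolds in replicate 2 and 1361 in replicate 3, were 1.44-fold and 1.22-fold as dense there, and 1.07-fold in replicate 1. Replicate 2 MACS peaks found in replicate 3 but not in replicate 1 were 1.57-fold as dense on the long scaffolds as on chromosomes, while those found in replicate 1 alone were 0.911-fold as dense. MACS peaks found in all 3 replicates were 1.11-fold, 1.21-fold and 1.18-fold as dense. These classes were formed after the lists were examined and were not tested.

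**Figure D3:**
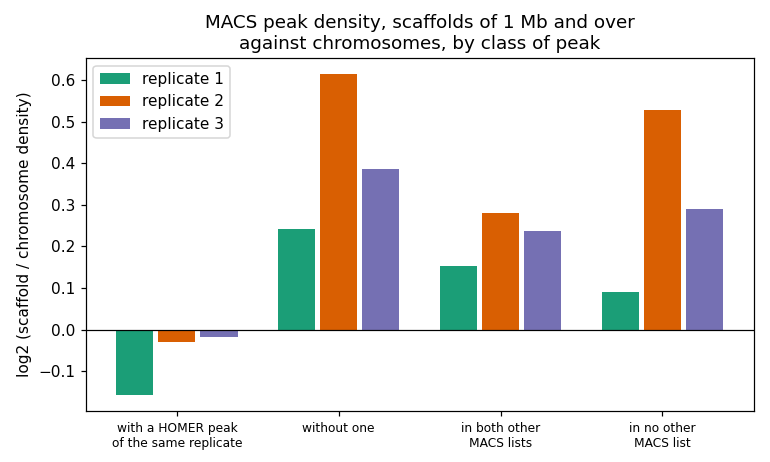
Log2 ratio of MACS peak density on the 43 scaffolds of 1 Mb and over to that on chromosomes (y axis), by class of peak and replicate. Peaks with a HOMER peak of the same replicate lay between -0.16 and -0.02, and those without one between 0.24 and 0.62.

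The balance of replicates also varied among long scaffolds, mostly within the range of chromosome windows. On the 18 whole chromosomes the ratio of replicate 3 to replicate 1 MACS peaks ran from 2.92 to 4.97, but the middle 90% of the 2 Mb windows spanned 1.33 to 16.05. Of the 43 scaffolds 1 lay above this range and 2 below it. On Scaffold31, 2.89 Mb in extent, 8, 93 and 119 MACS peaks were found in replicates 1, 2 and 3, a ratio of 14.9, beside 14, 19 and 9 HOMER peaks. A ratio that high was found in 79 of the 1236 windows with a replicate 1 peak. Its 41.2 MACS peaks per Mb in replicate 3 were matched or exceeded by 10 of the 1245 windows. On Scaffold32 there were 2, 58 and 90 MACS peaks, a ratio of 45 that rests on 2 peaks, beside 10, 6 and 1 HOMER peaks. That ratio was reached by 3 of those windows. Scaffold52 went the other way, with 11, 7 and 4 MACS peaks and 9, 8 and 2 HOMER peaks. It had the highest replicate 1 MACS density of the 43 scaffolds, 8.64 per Mb, and the lowest in replicate 3, 3.14 per Mb. None of the 1236 windows had a ratio as low as its 0.364. Scaffolds 31, 32 and 52 were singled out after their values were seen.

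Densities on the 43 scaffolds ranked alike in some pairs of lists and not in others. Spearman's rho across the scaffolds was 0.878 between the MACS lists of replicates 2 and 3, 0.351 between replicates 1 and 2 and 0.144 between replicates 1 and 3. Between HOMER lists it was 0.768, 0.638 and 0.790 for replicates 1 and 2, 1 and 3, and 2 and 3. The replicate 1 MACS densities ranked with those of replicate 1 HOMER (0.673) and replicate 2 HOMER (0.683). The replicate 3 MACS densities ranked with no HOMER list, at 0.228, 0.074 and 0.088. The 3 MACS pairs kept this order on the 18 chromosomes, at 0.769, 0.523 and 0.020. These values describe sequences that share libraries, mappability and base composition, and 2 callers on 1 library use the same reads.

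**Figure D4:**
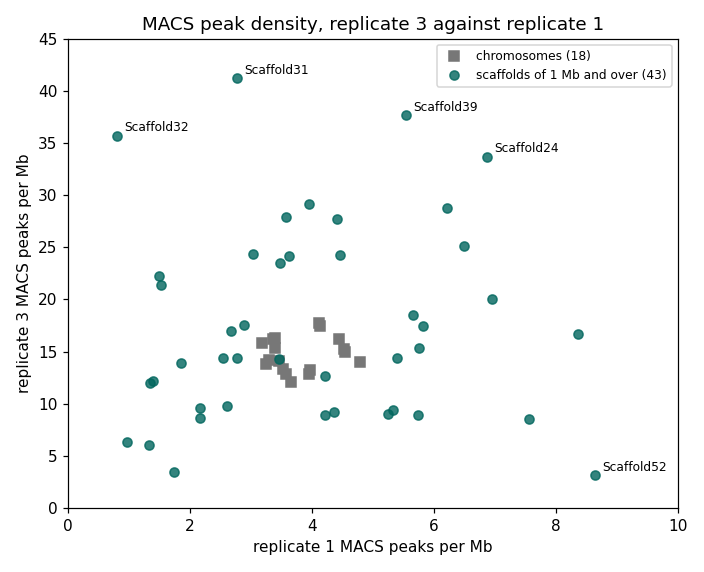
MACS peaks per Mb in replicate 3 (y axis) against replicate 1 (x axis) for the 18 chromosomes (squares) and the 43 scaffolds of 1 Mb and over (circles). The chromosomes sit close together between 12.1 and 17.7 on the y axis, Scaffold31 and Scaffold32 lie high at low replicate 1 density, and Scaffold52 lies low at the highest.

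On scaffolds under 1 kb the peaks spanned much of the extent, which peak ends themselves set. A MACS peak covered a median of 60%, 64.8% and 55.7% of the extent in replicates 1, 2 and 3, and a HOMER peak 45.4%, 60.3% and 51.5%. No list held more than 2 peaks on any of them. Because extent was taken from peak ends, the farthest peak ends exactly at it, which happened for 78.5%, 79.7% and 80.2% of the MACS peaks there. Of the 289, 659 and 595 MACS peaks there, 173, 398 and 405 did so on a scaffold with peaks in no other list. A large covered share thus follows in part from the definition, and the share of the true sequence is not known. HOMER peaks had 1 width per list, 172, 290 and 246 bp, except for 118, 118 and 56 narrower peaks. Every narrower peak lay on a scaffold, and 116, 116 and 53 of them on a scaffold under 1 kb, where they were 37.5%, 61.4% and 55.8% of the HOMER peaks. Of the narrower peaks, 29, 42 and 21 began at the start of a scaffold, and 100, 85 and 30 ended at its extent. The narrowest in replicate 1 had a width of 0 bp, so it could overlap no other peak. In the combined list the intervals were 500 bp wide save for 4 of 326 to 493 bp. These 4 all began at the first base of a scaffold under 1 kb.

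Most of these fragments were seen in 1 list, as were most scaffolds with a peak. Of the 1601 scaffolds under 1 kb, 1267 (79.1%) had peaks in 1 of the 6 lists and 10 in all 6. Over all 2154 scaffolds the numbers were 1516 and 64, and 56.6% of the 433 scaffolds of 1 kb to 100 kb had peaks in 1 list. By list, 405 were found in the replicate 3 MACS list alone, 398 in the replicate 2 MACS list alone, 183 in replicate 1 HOMER alone and 173 in replicate 1 MACS alone. A further 119 were shared by the MACS lists of replicates 2 and 3 and no other. By contrast, 36 of the 43 scaffolds of 1 Mb and over had peaks in all 6 lists, which their size makes easy. Where a scaffold under 1 kb did have peaks in 2 lists, the peaks nearly always overlapped, in 84.8% to 100% of cases over the 15 pairs of lists. On so short a sequence little room is left for them not to, so recurrence there says that the same fragment was called again and little about position within it.

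Scaffold peaks recurred less often than chromosome peaks in each of the 6 lists. For MACS and replicates 1, 2 and 3, 14.7%, 4.90% and 4.11% of scaffold peaks overlapped a peak of both other replicates by at least 1 bp, against 18.5%, 7.23% and 5.32% of chromosome peaks and 18.2%, 6.98% and 5.21% of the whole lists. In the HOMER lists the shares were 12.9%, 15.2% and 36.8% on scaffolds, 20.1%, 18.0% and 43.3% on chromosomes and 19.4%, 17.8% and 42.8% in the whole lists. The mean difference was -2.43 percentage points ± 1.27 for MACS and -5.49 ± 2.36 for HOMER (SD, n = 3), lower in 3 of 3 replicates for both (exact sign-flip permutation p = 0.25, adjusted p = 0.333 over 8 tests, the smallest p that 3 replicates allow being 0.25). The MACS direction was not kept under 2 alternatives. In the better 50% of each list by score the mean was 1.21 percentage points, from 5.81, -1.42 and -0.76 in replicates 1, 2 and 3, so replicate 1 alone turned it. Recurrence between replicates 2 and 3, which asks for a single other replicate, gave -1.55 and 3.67, a mean of 1.06. Without replicate 3 the same kind of recurrence gave a mean of -10.3 for MACS and -10.8 for HOMER.

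In each list, peaks on scaffolds under 1 Mb recurred less often than peaks on longer scaffolds. On scaffolds of 1 Mb and over, 19.9%, 6.24% and 4.84% of MACS peaks and 18.3%, 16.1% and 44.0% of HOMER peaks recurred in both other replicates. These differed from chromosomes by a mean of -0.016 percentage points for MACS and -0.97 for HOMER, in directions that were mixed among replicates. For replicates 1, 2 and 3 the differences were 1.42, -0.99 and -0.48 for MACS and -1.75, -1.89 and 0.72 for HOMER. Both means were smaller than the spread between replicates (SD 1.27 for MACS and 1.46 for HOMER, n = 3), so no consistent shortfall was seen there. Between 100 kb and 1 Mb the shares were 16.8%, 3.92% and 2.68% for MACS and 18.3%, 14.9% and 40.5% for HOMER, the last from 37 peaks. On scaffolds under 1 kb they were 6.23%, 2.73% and 3.53% for MACS and 8.41%, 14.3% and 27.4% for HOMER. Split at 100 kb, long scaffolds exceeded short ones by 11.1, 2.48 and 0.91 percentage points for MACS, the mean being 4.83 ± 5.48 (SD, n = 3). For HOMER the excess was 11.1, 2.1 and 17.2, the mean being 10.1 ± 7.61 (SD, n = 3). Both were positive in 3 of 3 replicates (exact sign-flip permutation p = 0.25, adjusted p = 0.333). Leaving out a replicate, which also lowers the number of others a peak must be found in, changed some of these means by over 1.5 times. MACS gave 8.66 without replicate 1 and 16.02 without replicate 3, and HOMER 16.5 without replicate 1. Smaller changes were seen for MACS without replicate 2, at 4.99, and for HOMER without replicates 2 and 3, at 13.4 and 12.5. Without replicate 2 the MACS values were 10.1 and -0.10 for replicates 1 and 3, so the sign was then mixed. With long scaffolds taken by a number of at most 100 in the name, which peaks do not set, the means were 4.19 and 8.55.

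**Figure D5:**
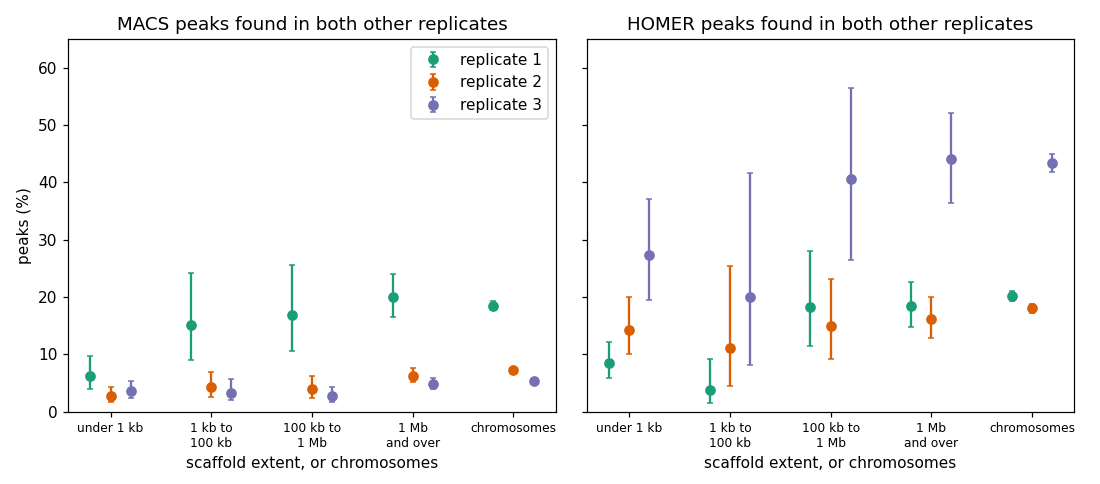
Percentage of MACS (left) and HOMER (right) peaks found in both other replicates of the same caller (y axis), by scaffold extent and on chromosomes, with 95% Wilson intervals. Scaffolds of 1 Mb and over sit near the chromosomes in each list, and scaffolds under 1 kb below them, as in replicate 3 HOMER at 27.4% against 43.3%.

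Replicate 3 MACS peaks showed a different order when recurrence in a single other replicate was counted. Of these peaks 65.6% on scaffolds and 69.1% on chromosomes were found in no other MACS list, so scaffold peaks were here the more often shared. In the other 5 lists the share seen in no other replicate was higher on scaffolds. It stood at 61.2% against 49.2% in replicate 1 MACS, at 52.2% against 44.8% in replicate 2 MACS, and at 67.2% against 50.7%, 56.5% against 50.1% and 36.8% against 28.2% in the HOMER lists. On scaffolds under 1 kb it reached 78.5%, 72.5% and 72.4% for MACS and 76.4%, 58.7% and 51.6% for HOMER.

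Overlap between the callers was also lower on scaffolds, most of all in replicate 1. Of the MACS scaffold peaks, 36.0%, 13.6% and 2.78% overlapped a same-replicate HOMER peak, against 52.3%, 22.8% and 3.71% on chromosomes and 50.9%, 21.8% and 3.62% in the whole lists. Of the HOMER scaffold peaks, 37.5%, 49.4% and 30.1% lay in the MACS list of their replicate, against 58.5%, 52.9% and 30.9% on chromosomes and 56.6%, 52.6% and 30.9% in the whole lists. The mean difference was -8.80 percentage points ± 7.66 for MACS and -8.43 ± 10.97 for HOMER (SD, n = 3), lower in 3 of 3 replicates (exact sign-flip permutation p = 0.25, adjusted p = 0.333). The differences were -16.2, -9.21 and -0.93 for MACS and -21.0, -3.50 and -0.79 for HOMER in replicates 1, 2 and 3. Without replicate 1 the means were -5.07 and -2.15, so replicate 1 decided much of their size. With at least 50% of both intervals shared, the means were -1.99 and -1.42, and with centres within 200 bp they were -8.57 and -8.60. The 50% rule depends on peak width. In replicate 1 the usual HOMER peak was 172 bp wide and the median MACS peak on chromosomes 354 bp, so such a pair could not pass. Shares under that rule are not given, so the smaller means do not show a smaller relative difference. On scaffolds of 1 Mb and over the HOMER shares were 53.9%, 54.0% and 34.0%, a mean difference from chromosomes of -0.14, whereas the MACS shares of 45.4%, 15.9% and 2.83% stayed lower in all 3 replicates, the mean difference being -4.90.

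Typical scores were similar on scaffolds and chromosomes outside replicate 1. Scores have no common scale across lists, so each was read as a percentile of its own list, where 100 is best. The median scaffold peak stood at percentile 38.2, 49.2 and 52.2 of the MACS lists and the median chromosome peak at 51.2, 50.1 and 49.8. In the HOMER lists the medians were 42.4, 45.3 and 47.0 on scaffolds and 51.3, 49.6 and 47.0 on chromosomes. The mean differences of -3.85 ± 8.10 for MACS and -4.43 ± 4.47 for HOMER (SD, n = 3) were within the spread between replicates (exact sign-flip permutation p = 0.75 and 0.5, adjusted p = 0.75 and 0.571). Among peaks found in both other replicates the means became 1.02 and 1.85. In the replicate 1 MACS list the median peak was at percentile 30.9 under 1 kb and at 44.7 on scaffolds of 1 Mb and over, both under the 51.2 of chromosomes.

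At the very top of the HOMER lists, scaffolds were more frequent in replicates 1 and 3 than in replicate 2. Of the 10 best HOMER peaks, 4 lay on scaffolds in replicate 1, 0 in replicate 2 and 6 in replicate 3. For MACS the numbers were 0, 0 and 2. In percent of their own kind, 2.80%, 0.816% and 3.31% of the HOMER scaffold peaks reached the best 1% of their list, against 0.845%, 1.01% and 0.817% of chromosome peaks. For MACS it was 0.333%, 0.612% and 1.50%, against 1.07%, 1.05% and 0.951%. Under 1 kb, 8 of the 95 replicate 3 HOMER peaks (8.42%) were in the best 1%. The share there was 2.59% and 1.06% in replicates 1 and 2 of HOMER, and 0%, 0.303% and 0.504% for MACS.

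Several of these leading HOMER peaks were found in no other list. The best peak of the replicate 3 HOMER list lay on Scaffold34108, whose extent is 493 bp, with a score of 149 against 116 for the best chromosome peak, and overlapped none of the other 5 lists. The peaks ranked 3 and 7, on Scaffold24859 (score 109) and Scaffold11135 (score 65), overlapped none either. In replicate 1 the peak ranked 5, on Scaffold19074 (score 137), was likewise alone. Others recurred. A peak on Scaffold31 ranked 4 in both replicate 1 (score 141) and replicate 3 (score 91) and overlapped the MACS lists of replicates 2 and 3, but no replicate 2 HOMER peak. The replicate 1 peak on Scaffold20961, ranked 9, overlapped all 5 other lists.

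Among MACS peaks the best on a scaffold ranked 36, 32 and 4 in replicates 1, 2 and 3. In replicate 1 it lay on Scaffold27 at 3463664 to 3463840, scored 652 and overlapped no other list. In replicate 2 it was Scaffold20961 at 1 to 538, which scored 1519 and overlapped all 5 others. In replicate 3 it was a peak of 5026 bp on Scaffold78 at 181554 to 186579, which scored 1716 and overlapped the replicate 2 MACS list alone. A high score in 1 list therefore did not mean a call in the others.

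Called by both callers in every replicate were 51 separate scaffold regions, into which the 59 common intervals merge, out of 768 regions in all. They lay on 36 scaffolds, 26 of which held a single region. Scaffold19 held 4 regions, Scaffold21, Scaffold24 and Scaffold40 held 3 each, and Scaffold20 was among the 6 scaffolds with 2. Scaffolds of 1 Mb and over held 32 regions, or 0.288 per Mb, beside 0.286 per Mb on chromosomes. The other 19 lay on scaffolds of 100 kb to 1 Mb (6 regions), 1 kb to 100 kb (3 regions) and under 1 kb (10 regions). The number depended on replicate 3: the 4 lists of replicates 1 and 2 shared 148 intervals on scaffolds. The same count over all sequences was not made, so this dependence is not shown to be particular to scaffolds.

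Common regions scored as highly on scaffolds as on chromosomes in most lists. Their best overlapping peak had a median percentile of 89.5, 97.4 and 80.9 in the MACS lists on scaffolds and of 92.7, 97.3 and 78.9 on chromosomes. For HOMER the medians were 91.5, 93.3 and 86.9 on scaffolds and 91.5, 94.1 and 86.9 on chromosomes. The 10 regions under 1 kb stood at 85.4, 95.7 and 67.9 for MACS, the lowest of them at percentile 16.1 in replicate 3. Of the 100 regions with the best mean MACS rank, 5 were on scaffolds, and of the 10 best, 0 were. Scaffold regions were 6.64% of all regions.

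The best scaffold region began at the first base of Scaffold20961, whose extent of 538 bp is the end of the replicate 2 MACS peak. How much of the whole scaffold was covered is therefore not known. The region lay at 1 to 493 and took place 11 of the 768 regions by mean MACS rank. Its MACS scores were 464, 1519 and 490 (ranks 107, 32 and 243), and its HOMER scores 117, 118 and 51 (ranks 9, 33 and 11), so it was near the top of all 6 lists. The next, on Scaffold42 at 1476249 to 1476748, had MACS scores of 274, 1335 and 718 but HOMER scores of 15, 37 and 9, the last of which is the lowest that the replicate 3 list holds. The callers thus ranked this region very differently. On Scaffold21 at 6226556 to 6227055 the MACS scores were 410, 1476 and 301 and the HOMER scores 38, 106 and 25. The fourth, on Scaffold19 at 6262118 to 6262617, had MACS scores of 268, 1336 and 288 and HOMER scores of 70, 135 and 36, the replicate 2 value being the best of any HOMER scaffold peak in that list.

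A second short scaffold followed. The region on Scaffold1114 at 614 to 1113, of an extent of 1373 bp, had MACS scores of 179, 1196 and 563 and from HOMER it had 65, 68 and 24. The remaining 5 of the 10 best regions lay on Scaffold79 at 571272 to 571771, Scaffold36 at 643719 to 644218, Scaffold41 at 781232 to 781731, Scaffold81 at 409214 to 409713 and Scaffold24 at 234350 to 234849. Their MACS scores ran from 197 to 357 in replicate 1, from 463 to 1285 in replicate 2 and from 176 to 217 in replicate 3. Their HOMER scores ran from 33 to 62, 63 to 120 and 22 to 30. All 5 stood in the better part of each list, down to rank 2758 of 40056 in replicate 3 MACS and rank 1465 of 9258 in replicate 1 HOMER, the latter on Scaffold36. Scores are the authors' own and are to be read only within their list. Positions follow the deposited lists, with a genome build not given in the sources used here. A matching genome was not used here, so neither genes nor sequences are given for these regions.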

How the data were processed

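Peaks were analysed from the 3 ChIP libraries. The submitters' processing notes name the tools bedtools, HOMER, MACS, SAMtools and Bowtie2, without versions. What each did, and how it was set, was not given in the sources used here. Column 5 of the deposited BED files was read as the score given by the authors' peak callers. No header names its scale. The members and the comparisons were chosen with earlier results of these data known.

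Overlap meant at least 1 shared bp, and recurrence a peak in both other replicates of the same caller. Scores were turned into percentiles within each list. MACS starts were read as counted from 0. HOMER starts began at 1, so they may be offset by 1 base, which was not corrected. Scaffold and chromosome values were compared within each replicate by an exact 2-sided sign-flip permutation test over the 3 replicates, with Benjamini-Hochberg adjustment over 8 tests, and over 2 for density. Density on scaffolds of 1 Mb and over, the 2 Mb windows and the classes of MACS peaks were added after the lists were examined. Named regions are the 10 scaffold regions with the best mean MACS rank, the 5 scaffolds with the most MACS peaks, HOMER peaks and common regions, and the best scaffold peak of each list. Others were chosen after their values were seen. Alternatives were other overlap rules, the better 50% of each list, equal list lengths, other limits of extent, and leaving out a scaffold or a replicate. A gene table of another assembly was not applied. The overlap code was tested on made-up lists with planted recurrence. Calculations used scipy 1.17.1, pandas 2.3.3 and numpy 2.4.6 in Python 3.11.15, and plots matplotlib 3.10.9.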

Additional observations from a re-analysis of the deposited data

How the results depend on the processing

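Of 95 recomputed values, 87 kept their direction, or moved by less than the spread between replicates or 1.5 times. Direction means the sign of the mean alone, so small means with replicates of mixed sign count as kept. An example is the HOMER overlap with MACS on scaffolds of 1 Mb and over. Its mean difference of -0.14 came from -4.63, 1.14 and 3.08 in replicates 1, 2 and 3. With 3 replicates none could pass the threshold, so the count of 87 says nothing about calls. The difference in MACS recurrence between scaffolds and chromosomes, -2.43 percentage points, reversed to 1.21 in the better 50% of each list and leaving out single replicates gave -10.3 to 1.06, with 1.06 when replicate 1 was dropped. The mean difference in score percentile reversed among peaks found in both other replicates, to 1.02 for MACS and 1.85 for HOMER. For MACS it also reversed without replicate 1, to 0.74, within a range from -6.94 to 0.74 when single replicates were left out. In each of these reversals of the score percentile the replicates were mixed in sign. The cause of the reversals was not tested. Overlap with the other caller kept its direction but ranged from -12.7 to -5.07 for MACS and from -12.2 to -2.15 for HOMER when a replicate was dropped, and the difference between long and short scaffolds from 4.99 to 16.02 and from 12.5 to 16.5. With at least 50% of both intervals shared, a rule that peaks of very unlike width cannot meet, the caller difference was -1.99 for MACS and -1.42 for HOMER. Under that rule the recurrence difference between scaffolds and chromosomes was -0.58 for MACS and -4.04 for HOMER. The 59 common intervals on scaffolds became 156 with the MACS lists alone, 111 with the HOMER lists alone and 148 without replicate 3, since fewer lists had to overlap. Leaving out a replicate gave 60 to 148. These counts were not made over all sequences. By its mean, HOMER recurrence stayed lower on scaffolds in all its 11 alternatives, from -10.8 to -0.97. The smallest difference was on scaffolds of 1 Mb and over, where the replicates were mixed in sign. The alternatives for scaffolds of 1 Mb and over, for scaffold numbers and for density were added after the data were examined. Scaffold and chromosome values were compared within each replicate throughout. Between ChIP and input, no paired analysis was possible because only the ChIP libraries have peak lists here. Depth is unknown, and mappability of the short scaffolds was not measured.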

Other observations

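Very wide MACS peaks were few, and a larger part of them than of all MACS peaks lay on scaffolds. Of the MACS peaks of 2 kb or more, 7 of 16 in replicate 2 (43.8%) and 6 of 13 in replicate 3 (46.2%) lay on scaffolds. Of all MACS peaks in those lists, 10.7% and 9.17% did. Replicate 1 had 0 peaks of that width. Scaffold78 held 3 of the wide peaks in replicate 2 and 2 in replicate 3. The widest on a scaffold, 5007 bp in replicate 2 and 5026 bp in replicate 3, began within 1 bp of each other and had MACS scores of 497 and 1716. On chromosomes the widest were wider still, at 8713 and 8710 bp. On Scaffold847 a replicate 3 peak covered 3015 bp of an extent of 3510 bp, ranked 9 in its list and overlapped a HOMER peak of replicate 3, the only one of the 13 wide scaffold peaks that did. Scaffold853 held wide peaks in replicates 2 and 3, of 2419 and 2178 bp, and the replicate 1 HOMER peak ranked 6. Its extent of 2515 bp is the end of the replicate 2 wide peak.

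Neighbouring MACS peaks were closer together on scaffolds of 1 Mb and over than on chromosomes in replicates 2 and 3, with a median gap of 13.2 and 11.9 kb against 18.8 and 16.3 kb. In replicate 1 the gaps were 30.2 and 29.6 kb. HOMER gaps were wider on those scaffolds in all 3 replicates, at 36.2, 29.3 and 101.3 kb against 28.6, 25.0 and 56.1 kb. None of these values was tested, and all were looked at after the lists were examined.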
